A study of Mus musculus with 4 samples.

Results

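Cells keep spare fatty acids in lipid droplets, and 10 genes of that storage were followed here through the 4 conditions of the study. The genes were chosen by name, as the rows of the count table whose NCBI gene ID belongs to Hilpda, Plin2, Plin3, G0s2, Pnpla2, Fabp3, Fabp4, Fabp5, Lpin1 or Vldlr, and all 10 were found among 27179 genes. MC38 is a mouse colon carcinoma line of wild-type genotype, and 1 library was sequenced for each of untreated normoxic, untreated hypoxic, IFN-γ-treated normoxic and IFN-γ-treated hypoxic cells. Normoxia was 20% oxygen and hypoxia 1.5% oxygen, while the hours in hypoxia are not given in the sources used here. IFN-γ was used at 5 ng/mL for 24 h in most experiments of the study, and no other dose or time is stated for these libraries. The counts on genes came to between 34302971 and 34537939 per library, and none of the differences below has a replicate check.

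A lipid droplet is a core of triglyceride and sterol ester under a single layer of phospholipid, coated by perilipins such as those encoded by Plin2 and Plin3. Fatty acids arrive from outside, partly from lipoproteins held by receptors such as the VLDL receptor (Vldlr), and are carried in the cytosol by fatty acid binding proteins (Fabp3, Fabp4, Fabp5). Lipin-1 (Lpin1) makes the diacylglycerol from which triglyceride is built, adipose triglyceride lipase (Pnpla2) starts its breakdown, and the small proteins HILPDA and G0S2 inhibit that lipase. Cells short of oxygen are known to store more lipid, and Hilpda, Vldlr and Lpin1 are described targets of the hypoxia-inducible factors (HIF).

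Hypoxia raised 5 of the genes and IFN-γ raised 1 other. Vldlr, Hilpda and Lpin1 rose 1.73-fold, 1.52-fold and 1.45-fold with hypoxia, and the coat genes Plin3 and Plin2 by the smaller factors of 1.17 and 1.16. By log2 change they stood at places 357, 625, 763, 2303 and 2400 from the top of 13580 genes tested, in that order. Pnpla2, the lipase, rose 1.57-fold with IFN-γ. Of the 10 genes, 8 passed edgeR's filter on low counts, and G0s2 and Fabp3 did not. The calls are those of edgeR's quasi-likelihood test, fitted with a term for oxygen and one for IFN-γ, at a Benjamini-Hochberg (BH) adjusted p under 0.05 over 13580 genes, of which 8.21% were raised by hypoxia, 6.83% lowered by hypoxia, 4.76% raised by IFN-γ and 1.10% lowered by IFN-γ. No member was lowered by either stimulus in edgeR, nor at an unadjusted p under 0.05 (0 genes), nor in DESeq2 (0 genes). With 1 library per condition, the spread comes from how far the 2 pairs of libraries differ, with 1 residual degree of freedom. edgeR pools that spread over genes, so a standard error or p-value rests largely on other genes of like count. It does not measure how well a gene's own change repeats. In that spread, a real interplay of the stimuli and a difference between cultures cannot be told apart. Nor can a change in RNA per cell be told apart from a change in the share of cells that make it.

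Levels were compared between genes per length of the longest coding transcript, as RPKM, the reads per kilobase scaled to library size. Plin2 was the most abundant in every library, at 152 RPKM in the untreated normoxic, 191 in the untreated hypoxic, 163 in the IFN-γ normoxic and 176 in the IFN-γ hypoxic library. Hilpda, Plin3 and Pnpla2 formed the next group, between 21.2 and 49.1 RPKM, and changed places between libraries. Pnpla2 was the lowest of these 3 in both untreated libraries (23.7 and 21.2 RPKM) and above Plin3 in both IFN-γ libraries (34.1 and 36.5 RPKM for Pnpla2). Lpin1 and Vldlr followed at 7.49 to 13.7 RPKM, and Fabp5 at 6.39 to 6.85 RPKM. Fabp4 and Fabp3 lay below 1 RPKM throughout. The order of neighbours in the lower part is not firm, since Lpin1 and Vldlr, and Fabp3 and Fabp4, each stood in the opposite order in at least 1 library when all annotated exons were taken as the length. That choice also lowered levels, those of Plin2 to 81.6 to 103 RPKM, of Lpin1 to 4.33 to 6.73 RPKM and of Fabp5 to 1.77 to 1.89 RPKM. Summed over the 10 genes, the level was 599 and 639 CPM (counts scaled to library size) in the untreated and IFN-γ normoxic libraries and 770 and 762 CPM in the hypoxic ones. This sum is not per length, and Plin2 alone made up 286, 308, 361 and 332 CPM of it, in the same order.

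**Figure D1:**
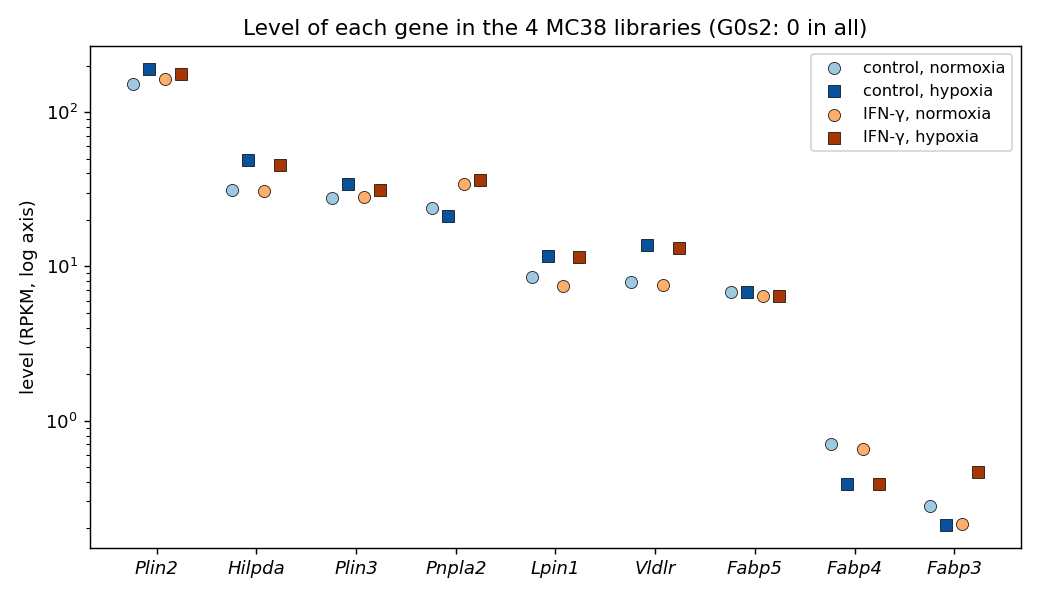
Level of 9 genes in each of the 4 libraries, in RPKM on a log axis, with circles for normoxia, squares for hypoxia, blue for control and orange or brown for IFN-γ; each point is 1 library. G0s2 had 0 counts everywhere and is not drawn. The squares of Hilpda, Lpin1 and Vldlr lie above their circles, and for Pnpla2 both IFN-γ points lie above both control points. These orders only describe the 4 libraries.

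Vldlr encodes a receptor that takes up triglyceride-rich lipoproteins, and it was the gene of the 10 that rose most with hypoxia. It lies on chromosome 19 (chr19:27216484-27254231, plus strand, GRCm38). It had 2195 counts in the untreated normoxic and 3768 in the untreated hypoxic library, and 2072 and 3606 counts in the corresponding IFN-γ libraries. Both hypoxic libraries were thus above both normoxic ones. The share of all genes that separate in this way is not given here, so such an order only describes the counts, here and for the genes below. Hypoxia gave it a log2 change of 0.79 (SE, the standard error, 0.0655 and BH-adjusted p 4.08e-31 from edgeR), place 357 from the top among the 13580 genes tested. The 2 pairs of libraries gave almost the same value, 0.78 without IFN-γ (95% counting interval 0.67 to 0.89) and 0.80 with it (0.69 to 0.91). These intervals cover counting error only and were taken from the counts divided by 2, since both reads of a pair appear to have been counted. All 7 alternative fits by edgeR or DESeq2 called the rise, with adjusted p-values from 4.8e-16 to 0.00619. With IFN-γ it was -0.06 (SE 0.0652, BH-adjusted p 0.827 in edgeR).

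Hilpda, first described as a hypoxia-inducible lipid droplet protein, had 1060 counts in the untreated normoxic and 1665 in the untreated hypoxic library. With IFN-γ it had 1032 counts under normoxic and 1517 under hypoxic conditions, so the hypoxic libraries again stood above the normoxic ones. The log2 change with hypoxia was 0.61 (SE 0.0772, BH-adjusted p 4.54e-13 from edgeR), and 7 of 7 alternative fits called it (adjusted p from 8.5e-08 to 0.028, edgeR or DESeq2). The pairs gave 0.65 without IFN-γ (95% counting interval 0.50 to 0.81) and 0.56 with it (0.39 to 0.72), and the difference between them, -0.10, had an interval of -0.32 to 0.13 that includes 0. IFN-γ changed Hilpda by -0.08 (SE 0.0771, BH-adjusted p 0.809 in edgeR).

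The letters before the start sites are shown because HIF binds short elements whose core reads ACGTG or GCGTG, and because Hilpda and Plin2 are the raised genes that carry such a core near their start. RefSeq promoter windows (GRCm38.p6), from 250 bases before to 50 bases after each annotated start, were at hand for 8 of the 10 genes, not for Fabp4 and Fabp5. Either core on either strand was found for 3 of these 8 (Hilpda, Plin2 and G0s2) and for 46.7% of 27025 genes with a window, so a share of 3 in 8 is no larger than that of all genes. Hilpda has 2 annotated starts, at positions 29272488 and 29272626 of chromosome 6, and 3 cores lie between them on the sense strand. Each is printed with its neighbours, 5′ to 3′ on the strand of the gene, with the core in capitals:
Hilpda, chr6:29272505-29272529, plus strand: accgcgagccGCGTGctttccgtga
Hilpda, chr6:29272573-29272597, plus strand: tggccagcggACGTGccccagggcg
Hilpda, chr6:29272608-29272632, plus strand: ggttcggtacGCGTGcgcagtctcc

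In Plin2 a core lies on each strand across the start itself, where the letters CACGTG read the same both ways, and 1 more lies on the opposite strand at positions -86 to -82 from the start, where the sense strand reads CACGC. Vldlr, which rose most, has no core in either of its 2 windows, nor have Lpin1, Plin3, Pnpla2 and Fabp3 in theirs. The stretch from upstream of Plin2 to the base after its start, and the bases just before the start of Vldlr, set letters with cores beside letters without:
Plin2, chr4:86670058-86670159, minus strand: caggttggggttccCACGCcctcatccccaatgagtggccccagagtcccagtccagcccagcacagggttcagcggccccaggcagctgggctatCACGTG
Vldlr, chr19:27216384-27216483, plus strand: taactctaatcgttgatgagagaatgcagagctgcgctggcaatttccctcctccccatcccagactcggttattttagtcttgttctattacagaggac
The PPAR element (AGGTCA 2 times, 1 base apart), searched on both strands like the HIF core, was in none of the 8 and in 0.048% of all genes. The GAS element (TTCNNNGAA, N being any base), searched in the same way, was in none of the 8 and in 9.55% of all genes. With shares this low, finding none in 8 genes says little. A match names letters only, and sites outside these windows were not searched.

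Lpin1 encodes the phosphatidate phosphatase lipin-1 and lies on chromosome 12 (chr12:16535669-16610966, minus strand, GRCm38). It had 1647 and 2247 counts in the untreated normoxic and hypoxic libraries, and 1434 and 2205 counts in those with IFN-γ. Both hypoxic libraries were above both normoxic ones, which again only describes the counts. Its log2 change with hypoxia was 0.54 (SE 0.0718, BH-adjusted p 8.08e-12 from edgeR), with 0.45 (95% counting interval 0.32 to 0.58) in the pair without and 0.62 (0.49 to 0.76) in the pair with IFN-γ. In 6 of 7 alternative fits by edgeR or DESeq2 it was called, the exception being the comparison of 2 libraries with 2, at an adjusted p of 0.0534 (range over all alternatives 3.64e-07 to 0.0534). Under normoxic conditions the IFN-γ library was lower, with a log2 ratio of -0.19 (95% counting interval -0.33 to -0.04), while the hypoxic pair gave -0.01 (-0.14 to 0.11). Fitted over both pairs, the effect of IFN-γ was -0.10 in log2 (SE 0.0717, BH-adjusted p 0.652 in edgeR).

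The coat genes rose less. Plin2 encodes the perilipin that covers droplets in most cell types and is degraded when no lipid holds it, and Plin3 encodes one that moves onto young droplets from the cytosol. Plin2 (chr4:86648386-86670060, minus strand) had 9917 and 12461 counts in the untreated normoxic and hypoxic libraries and 10570 and 11357 counts in the IFN-γ ones. Its hypoxic libraries were both above the normoxic ones, and the gap was wider without IFN-γ. The log2 change with hypoxia was 0.22 (SE 0.0526, BH-adjusted p 0.000622 from edgeR, 0.00183 to 0.203 over 7 alternative fits by edgeR or DESeq2, 6 of which called it). The exception, at 0.203, was the comparison of 2 libraries with 2. In the pair without IFN-γ it was 0.33 (95% counting interval 0.28 to 0.39), and in the pair with IFN-γ 0.10 (0.05 to 0.16).

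For Plin2 the second change thus fell short of the first by a log2 difference of -0.23, with a counting interval of -0.30 to -0.15. Without replicates this difference was not tested, and 8.87% of the 6068 genes counted 1000 times or more in all libraries had a difference as large in either direction. Put the other way, the IFN-γ library was above the control under normoxic conditions by 0.11 (95% counting interval 0.05 to 0.16) and below it under hypoxic conditions, with a log2 ratio of -0.12 (-0.17 to -0.07). The 2 cancel in the fitted IFN-γ change of -0.01 (SE 0.0526, BH-adjusted p 0.988 in edgeR). Of the 31-base words of Plin2, 5.05% also occur in another annotated gene.

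Plin3 (chr17:56277476-56292873, minus strand) had 3489 and 4287 counts without IFN-γ and 3499 and 3898 counts with it, normoxia first. The normoxic libraries were nearly equal and both hypoxic ones lay above them. Its log2 change with hypoxia was 0.23 (SE 0.0616, BH-adjusted p 0.00298 from edgeR), and 5 of 7 alternative fits called it, with adjusted p-values from 0.00383 to 0.178. The fits that did not were DESeq2's Wald test, at an adjusted p of 0.0973, and the comparison of 2 libraries with 2, at 0.178. As for Plin2, the pair with IFN-γ gave less (0.16, 95% counting interval 0.06 to 0.25) than the pair without (0.30, 0.21 to 0.39). Their difference of -0.14 (-0.27 to -0.01) was matched or passed in size by 26.2% of the 6068 well-counted genes and was not tested. Plin2 stayed between 5.49 and 5.83 times as abundant per length as Plin3 in the 4 libraries, with counting intervals that all overlap. The size of this ratio rests on the length used, since with all annotated exons as the length it was 3.06 to 3.26.

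**Figure D2:**
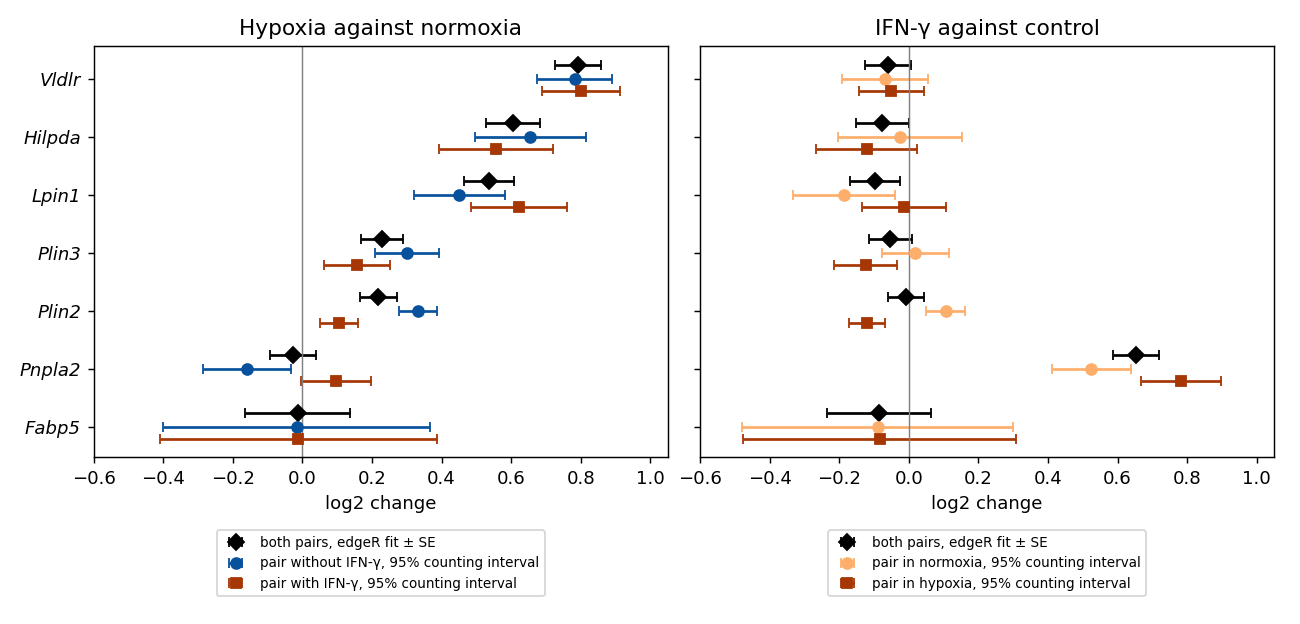
Log2 change of 7 genes with hypoxia (left) and with IFN-γ (right); black diamonds are edgeR's estimate over both pairs with its standard error, and coloured points are single pairs of libraries with 95% counting intervals. Vldlr, Hilpda and Lpin1 lie right of 0 with hypoxia in both pairs, the 2 hypoxia points of Plin2 stand apart at 0.33 and 0.10, and Pnpla2 alone lies well right of 0 with IFN-γ.

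Pnpla2 encodes adipose triglyceride lipase (ATGL), which takes the first fatty acid off a stored triglyceride. It lies on chromosome 7 (chr7:141455198-141460743, plus strand, GRCm38). It had 2157 counts in the untreated normoxic and 1927 in the untreated hypoxic library, against 3073 and 3283 counts in the IFN-γ libraries. Both IFN-γ libraries lay above both untreated ones, which again only describes the counts. The log2 change with IFN-γ was 0.65 (SE 0.0669, BH-adjusted p 1.71e-20 from edgeR), place 507 from the top, and 7 of 7 alternative fits called it (adjusted p from 1.11e-09 to 0.0152, edgeR or DESeq2). By pair it was 0.52 under normoxic (95% counting interval 0.41 to 0.64) and 0.78 under hypoxic conditions (0.67 to 0.90).

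With hypoxia Pnpla2 had a log2 change of -0.03 (SE 0.0668, BH-adjusted p 0.85 in edgeR), a mean over pairs that pointed in opposite directions. Without IFN-γ the hypoxic library was lower, at -0.16 (95% counting interval -0.29 to -0.03), and with IFN-γ it was at 0.10 (-0.00449 to 0.198). The difference between the pairs, 0.26, had a counting interval of 0.10 to 0.42 and was matched in size by 6.13% of the 6068 well-counted genes. It was not tested.

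The inhibitors of this lipase stood at opposite ends. G0s2 (chr1:193272161-193273217, minus strand) had 0 counts in all 4 libraries. For a count of 0, 3 fragments, or 6 counts, were taken as the upper limit, at about 95% confidence and not as a maximum. At these depths that is 0.174 to 0.175 CPM, so no level or change of G0s2 was detectable. Hilpda was then the inhibitor of the pair with a measured level. Set against Pnpla2 per length, Hilpda was at 1.31 times its level in the untreated normoxic library (95% counting interval 1.18 to 1.46) and at 2.31 times in the untreated hypoxic one (2.10 to 2.54). With IFN-γ the ratio was 0.898 under normoxic (0.811 to 0.992) and 1.24 under hypoxic conditions (1.13 to 1.35). It was highest with hypoxia alone and lowest with IFN-γ alone, and the untreated normoxic and the doubly treated library had overlapping intervals. With all annotated exons as the length the 4 ratios were 1.35, 2.37, 0.919 and 1.27 in the same order. This ratio was chosen after the values of both genes were seen, has no test, and speaks of RNA and not of protein or lipase activity.

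**Figure D3:**
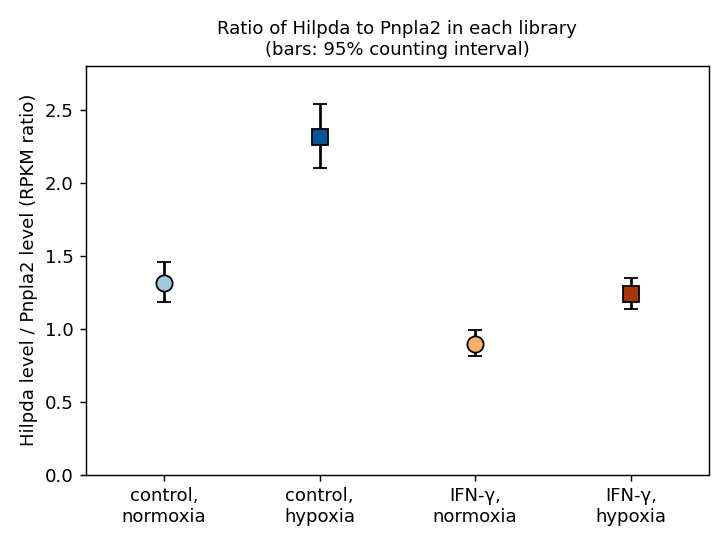
Level of Hilpda divided by that of Pnpla2, each in RPKM, in the 4 libraries; bars are 95% counting intervals from the counts divided by 2 and cover counting error only. The untreated hypoxic library stands highest at 2.31 and the IFN-γ normoxic library lowest at 0.898.

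Of the fatty acid binding proteins, Fabp4 and Fabp5 did not pass edgeR's test for either stimulus, and Fabp3 was too low to be tested. Fabp5, the epidermal type, was the only one well above the floor, with 234 and 231 counts in the untreated and 218 and 216 counts in the IFN-γ libraries, normoxia first. The 4 values lie within 18 counts of each other. Its log2 change was -0.01 with hypoxia (SE 0.15, BH-adjusted p 0.97 in edgeR), and the pairs had counting intervals from -0.41 to 0.39, so a change of the size seen for Hilpda lies outside them. Of its 31-base words 9.21% occur in another annotated gene.

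Fabp4, the type known from adipocytes and macrophages, had 22 and 20 counts in the normoxic and 12 in each hypoxic library. Its fitted log2 change with hypoxia of -0.80 had a standard error of 0.532 (adjusted p = 0.352 in edgeR), and the counting intervals of both pairs included 0. Fabp3, the heart and muscle type, had 8, 6, 6 and 13 counts in the untreated normoxic, untreated hypoxic, IFN-γ normoxic and IFN-γ hypoxic libraries, at or a little above the floor of 6 counts. It shares 37.3% of its words with other annotated genes, chiefly Fabp3-ps1, and its exons overlap those of Zcchc17 on the opposite strand, a gene with 1406 to 1618 counts. Whether strand was used in counting is not given in the sources used here, so its few counts are uncertain.

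Markers of other cells that use these genes were looked at beside them. Of 7 adipocyte markers (Fabp4 among them), Lep, Retn and Cfd were at or under 3 counts in every library, Lep at 0, and the list summed to 0.905 to 1.30 CPM. Of 7 macrophage and leukocyte markers (again with Fabp4), Adgre1 was at 0 and Cd3e at no more than 1 count, while Cd14 had 538 to 611 and Cd68 170 to 236 counts, and the list summed to 21.2 to 25.2 CPM. The label of colon cells was little borne by epithelial markers. Cdh1, Cdx1, Cdx2 and Cldn7 were at 0 and Epcam and Krt18 at no more than 2 counts. The highest of the list were Krt8 with 48 to 90, Lgals4 with 13 to 27 and Krt20 with 12 to 22 counts. The list of 11 summed to 3.27 to 3.81 CPM. A list of 7 mesenchymal markers summed to 2717 to 3028 CPM. Most of that was Vim, at 2183 to 2352 CPM, and Fn1, at 402 to 588 CPM. Not all of the list was high, since Col1a1 had 29 to 66 counts. The treatment labels were borne out by all 10 genes of a hypoxia list, such as Car9 with 422 and 324 counts in normoxia against 1733 and 1536 in hypoxia, and by all 10 of an IFN-γ list, such as Irf1 with 3770 and 4422 counts without against 20118 and 23759 with IFN-γ.

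Beyond the 10 genes, 6 lists covered 92 other genes of lipid handling, of which 65 were tested. Hypoxia raised 9 and lowered 2 of the 65, and IFN-γ raised 5 and lowered 1, at the same adjusted p over all genes in edgeR. Of all genes tested, 8.21%, 6.83%, 4.76% and 1.10% were called in the same order. These shares are the background for the counts of each list below, and no list was tested against them. Their median log2 change was 0.02 with hypoxia and -0.01 with IFN-γ, against 0.00 and -0.01 over all genes tested. The lists as a whole were thus close to all genes in their medians. Calls on single list genes are those of the main fit, and no alternative fit is given for them. Over all genes, those raised by hypoxia went from 1115 to 362 with DESeq2's Wald test, and those raised by IFN-γ from 647 to 353. With 2 libraries compared with 2, they went to 150 and 239. Whether a list gene keeps its call in other fits was thus not shown.

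Triglyceride and sterol ester synthesis was the list with most calls. Hypoxia raised 3 of its 14 tested genes, beside 8.21% of all genes, and IFN-γ raised 2 of the same 3, beside 4.76% of all genes. Soat1, which esterifies cholesterol for storage, had 4108 and 5157 counts without and 4734 and 6486 counts with IFN-γ, normoxia first. It rose with hypoxia by 0.39 (SE 0.0587, BH-adjusted p 1.33e-09) and with IFN-γ by 0.28 (SE 0.0587, BH-adjusted p 5.29e-05) on the log2 scale in edgeR, and the doubly treated library was the highest. Lpin2, another lipin, was likewise lowest untreated in normoxia and highest under both stimuli, with 1311, 1555, 1584 and 1995 counts in the untreated normoxic, untreated hypoxic, IFN-γ normoxic and IFN-γ hypoxic libraries. Its log2 changes were 0.29 with hypoxia (adjusted p = 0.00134) and 0.33 with IFN-γ (adjusted p = 0.00026), both from edgeR. Unlike Lpin2, Lpin1 passed the test for hypoxia only, though the difference between the 2 lipins was not tested. Gpam, the mitochondrial enzyme of the first acylation step, rose by 0.28 with hypoxia in the main fit (SE 0.101, BH-adjusted p 0.0431 in edgeR). That call lies close to the threshold, and no alternative fit is given for it. The final enzymes Dgat1 and Dgat2 were not called, with 823 to 975 and 952 to 1171 counts. Dgat2 came close to a call with IFN-γ, at a log2 change of -0.24 (SE 0.0805, BH-adjusted p 0.053 in edgeR). Its IFN-γ library was the lower one in both pairs, by -0.28 under normoxic and -0.19 under hypoxic conditions.

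In the list of uptake genes, carriers and lipoprotein receptors, hypoxia raised 2 and lowered 1 of 11 tested genes. Lrp1, a relative of the VLDL receptor that clears many ligands, had a log2 rise of 0.56 (SE 0.0819, BH-adjusted p 6e-10 in edgeR), but unevenly, from 946 to 1140 counts without and from 722 to 1305 counts with IFN-γ. The acyl-CoA synthetases of the transport family moved apart, with Slc27a4 at 0.27 (adjusted p = 0.000448) and Slc27a1 at -0.26 (adjusted p = 0.000146) in edgeR. The scavenger receptor Cd36, a main fatty acid transporter of fat and muscle, had 0 to 8 counts. IFN-γ lowered 1 gene of this list, Cav1, which encodes caveolin-1, with a log2 change of -0.20 (SE 0.0548, BH-adjusted p 0.0062 in edgeR).

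Among droplet coat and biogenesis genes, 7 of 15 were tested, since Plin1, Plin4, Plin5, Cidea, Cidec, Fitm1, Hsd17b11 and Hsd17b13 had at most 12 counts in any library. Plin2 and Plin3 were thus the perilipins with more than a few counts. Hypoxia raised Rab18, a GTPase found on droplets, by 0.24 (adjusted p = 0.00142), and Aup1, a droplet protein that also serves protein degradation, had a log2 change of -0.20 (adjusted p = 0.00801), both in edgeR. None of the 5 tested lipolysis genes was called in edgeR for either stimulus. Abhd5, the coactivator that HILPDA's target ATGL needs, had 897 to 949 counts in the 4 libraries, a narrow range beside that of Pnpla2. Mgll, which ends triglyceride breakdown, had 0 to 2 counts.

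Of 19 tested genes of fatty acid activation and beta-oxidation, hypoxia raised 1 and IFN-γ raised 2. Acsl5, an acyl-CoA synthetase, had the largest IFN-γ change of the 6 lists among genes past the test. It had 57 and 73 counts without IFN-γ and 155 and 190 counts with it, normoxia first, for a log2 rise of 1.42 (SE 0.211, BH-adjusted p 7.77e-10 in edgeR). Acadl, a dehydrogenase of long-chain acyl-CoA, rose by 0.21 with IFN-γ (adjusted p = 0.0236), and Acsl4, a synthetase that prefers arachidonate, by 0.15 with hypoxia (adjusted p = 0.0424). Both calls are from the main fit in edgeR, with no alternative fit given. Cpt1a, the gate to mitochondrial oxidation, was not called, at 2293 to 2679 counts. Of 9 tested regulators, hypoxia raised Ppard (0.28, adjusted p = 0.00481) and Nr1h2 (0.26, adjusted p = 0.00183), and IFN-γ raised Nr1h2 (0.37, adjusted p = 1.1e-06), all in edgeR. Ppard encodes PPARδ, a fatty acid sensor that drives Plin2 in many cells, and a link between the 2 genes was not tested here. The log2 ratio of hypoxia to normoxia was 0.11 without and 0.45 with IFN-γ for Ppard, and 0.33 and 0.10 for Plin2. Ppara had 0 counts and Pparg 2 to 6.

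**Figure D4:**
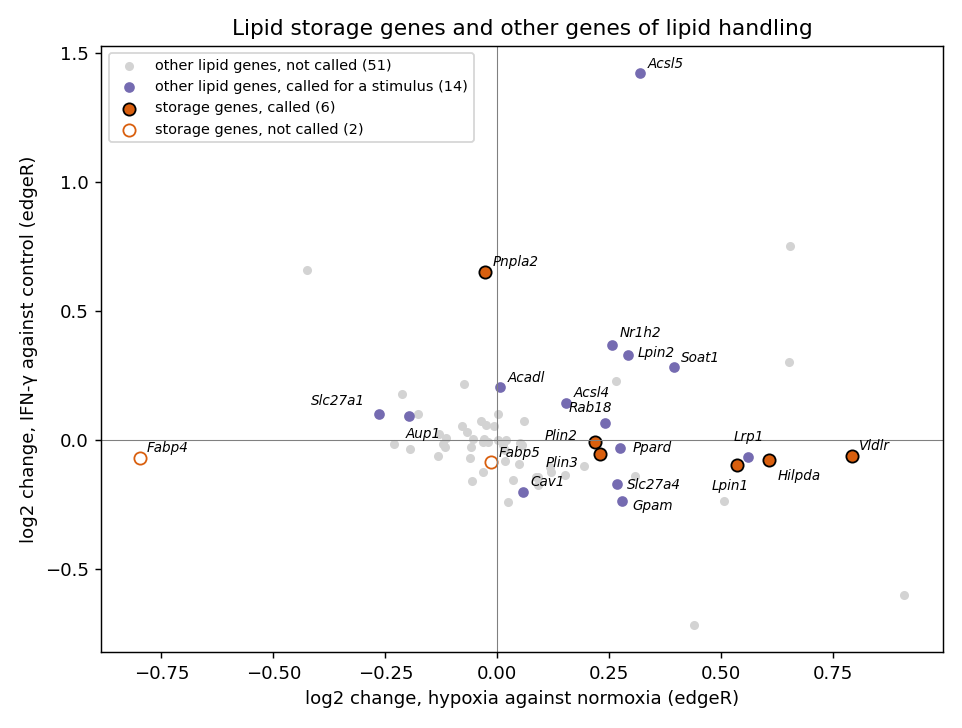
Log2 change with hypoxia (horizontal) against log2 change with IFN-γ (vertical), both from edgeR, for the 8 tested storage genes (orange) and 65 other tested lipid genes (purple where called for a stimulus, grey where not). Vldlr, Hilpda and Lpin1 lie to the right near 0 on the vertical axis, Pnpla2 lies above 0 near the middle, and Soat1 and Lpin2 lie right and above 0.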

How the data were processed

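RNA from MC38 cells was poly-A selected, made into strand-specific paired-end libraries and sequenced on a DNBSEQ instrument, with 1 library per condition. The authors aligned the reads with HISAT2 and deposited raw read counts per gene, listed by NCBI gene ID. The submitters' processing notes name featureCounts and the mouse build mm10, and the counting options and annotation are not given in the sources used here. Symbols came from RefSeq (GRCm38.p6), and positions and lengths from GENCODE M21 on the same build.

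The main test was edgeR 4.0.16 (R 4.3.3), quasi-likelihood, with TMM, its default filter (minimum 10 counts), oxygen and IFN-γ as terms and Benjamini-Hochberg adjustment at 0.05 over 13580 genes, with a pooled dispersion of 0.00222. Alternatives included DESeq2 1.42.0. Tests were checked on simulated data.

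Low counts were mostly even: 1058 to 1091 genes per library had 2 counts, but 475 to 534 had 1. Reads of a pair thus appear as separate counts, so 95% intervals (Clopper-Pearson for 2 libraries, normal with Poisson variances for differences of log2 ratios) were taken from each count divided by 2, a choice made after seeing the counts. They cover counting error only. Log2 ratios of 2 libraries used 0.5 added counts and TMM-scaled totals.

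The 10 genes, the lists and the tests were chosen with earlier results of these data known. Named genes are all 10, and of each list up to 4 per stimulus with an adjusted p under 0.05, the largest changes and a mean of at least 50 counts, plus markers at or under 3 counts or among the 3 highest. Dgat1, Dgat2, Cd36, Abhd5, Mgll, Cpt1a, Ppara, Pparg and the low coat genes were named after their values were seen.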

Additional observations from a re-analysis of the deposited data

Results flagged for a closer look

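For 5 genes, 6 comparisons pointed one way in 1 pair of libraries and the other way in the second pair. None of these differences was tested, since each rests on 4 single libraries. For Plin2, the log2 ratio of IFN-γ to control was 0.11 under normoxic and -0.12 under hypoxic conditions, a difference of -0.227, and both counting intervals excluded 0. For Plin3 the same ratios were 0.02 and -0.12, a difference of -0.143, and the normoxic interval included 0. For Pnpla2, the ratio of hypoxia to normoxia was -0.16 without and 0.10 with IFN-γ, a difference of 0.257, and the interval with IFN-γ included 0. Fabp3, at 6 to 13 counts, gave a difference of 1.44 both between its hypoxia ratios and between its IFN-γ ratios, and Fabp4, at 12 to 22 counts, one of 0.133 between its IFN-γ ratios, all with intervals that included 0.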

How the results depend on the processing

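The count of 5 storage genes raised by hypoxia held in 6 of 8 alternatives within 1.5 times, DESeq2's Wald test giving 4. It was 2 (Vldlr and Hilpda) when 2 libraries were compared with 2 without the other stimulus, and 3 (with Lpin1) when a log2 change of at least 0.5 was also asked for. The 1 gene raised by IFN-γ, Pnpla2, was called in all 8. Over all genes, comparing 2 libraries with 2 gave 150 raised and 26 lowered by hypoxia and 239 and 3 by IFN-γ, DESeq2's Wald test gave 362, 214, 353 and 16, and a log2 change of at least 0.5 gave 332, 46, 380 and 29, in the same order. Genes lowered by IFN-γ also fell to 99 with DESeq2's size factors, 71 without a filter and 74 with at least 10 counts in every library. Halving the counts, an alternative added after seeing them, left all 5 and the 1. No called value of the 10 genes changed direction in any alternative fit or single pair. The main fit gave each called storage gene its smallest adjusted p of all fits, so the size of those p-values is not firm. With only DESeq2's size factors put into edgeR, the adjusted p of Vldlr for hypoxia went from 4.08e-31 to 4.15e-10. That of Pnpla2 for IFN-γ went from 1.71e-20 to 6.46e-08, while both log2 changes stayed nearly the same. Leaving out 1 library leaves the fit no residual degree of freedom, so only single pairs could be given. No paired analysis was possible because each condition has 1 library, so that no replicate numbers pair the samples. The fit itself compares libraries within each state of the other stimulus, and the comparison of 2 libraries with 2 is the same data without that term.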

Other observations

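The evenness of low counts has a direct effect on how close to 0 a ratio of 2 libraries may lie. Among counts of 1 to 20, 63.2% to 64.8% of genes per library had an even count, against 49.8% to 50.6% among counts over 1000. Of 36 ratios between 2 libraries for the storage genes, 19 had a 95% interval that excluded 0 with the counts taken as deposited and 17 with each count divided by 2. The 2 that no longer did were the IFN-γ ratio of Hilpda under hypoxic conditions, at -0.12, and the hypoxia ratio of Pnpla2 with IFN-γ, at 0.10.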
